A study of Homo sapiens with 6 samples.

Results

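The genes described here are the Wnt ligands, their receptors and the proteins that regulate them, measured in T47D cells after an siRNA against HOTAIR-N or a control siRNA. They were chosen by symbol: every WNT ligand, Frizzled receptor (FZD), Dickkopf antagonist (DKK1 to DKK4) and secreted Frizzled-related protein (SFRP1, SFRP2, SFRP4 and SFRP5), together with 17 named co-receptors, secretion factors, inhibitors, destruction complex proteins and transcription factors. The rule found 54 of the 27968 genes in the deposited gene tables. T47D is a human luminal breast cancer cell line with estrogen and progesterone receptors. Both groups received RNAiMAX lipid and an siRNA and had RNA extracted 48 hours later, and they differed in the siRNA: a control siRNA or one directed at HOTAIR-N, which is a variant of HOTAIR, a long noncoding RNA. Each group held 3 libraries, from independent transfections, of stranded total RNA depleted of ribosomal RNA. No untransfected cells and no other cell line are among the samples, and the labels do not say whether the HOTAIR-N siRNA was a single duplex or a pool.

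Wnt proteins are lipid-modified secreted ligands that bind a Frizzled receptor and an LRP5 or LRP6 co-receptor. Without a ligand, a destruction complex of AXIN, APC and GSK3 kinases marks beta-catenin for degradation, and with a ligand beta-catenin accumulates and acts with TCF/LEF factors on target genes, among them several inhibitors of the pathway itself. In the breast, Wnt signals are known for their part in the growth of ducts and side branches, and WNT4 is known there as a ligand induced by progesterone.

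The libraries held 31777001 to 36707169 expected counts each, and the Wnt genes took 0.0656% to 0.0675% of them. A CPM (a count scaled to library size) of 1 stood for 31.8 to 36.7 counts before the TMM scaling applied to the CPM given here. HOTAIR was at 16.2, 16.1 and 16.6 CPM with the control siRNA and at 5.65, 5.63 and 5.68 CPM with the HOTAIR-N siRNA, 34.7% of control. Its counts do not separate the HOTAIR-N form from others. Replicate 2 of the control siRNA and replicate 3 of the HOTAIR-N siRNA stood apart from the other libraries of their groups: the chi-square per degree of freedom was 6.99 to 9.02 for pairs with either of them and 2.21 or 2.37 for the remaining pairs. Markers of luminal epithelium were present in every library, with a summed level of 9089 to 10305.5 TPM (a level corrected for transcript length) in the control group and 8197 to 9059 in the HOTAIR-N group. The 9 luminal markers moved both ways: CDH1, the gene of E-cadherin, rose 1.86-fold, KRT8 and KRT19 were not called, and KRT18, EPCAM, GATA3, FOXA1, ESR1 and PGR fell, ESR1 and PGR the most (log2 fold changes -1.64 and -1.46). Basal (0.3 to 0.54 TPM) and endothelial (0.01 to 0.05 TPM) markers were near 0. Of the leukocyte markers, CD3E and PTPRC had at most 4 counts per group, and the summed 2.52 to 2.71 TPM of the control group and 3.47 to 4.31 TPM of the HOTAIR-N group were mostly CD68. Mesenchymal markers, mostly COL1A1 and TWIST1, summed to 14.4 to 16.4 and 12.9 to 14.5 TPM. Of the 5 tested, VIM rose 9.03-fold, from 0.137 to 1.31 TPM, and COL3A1, CDH2, TWIST1 and COL1A1 fell, to 30.2%, 36.2%, 69.3% and 83.6% of control. VIM summed to 16 counts in the control group and 147 in the HOTAIR-N group, COL3A1 to 84 and 25, and CDH2 to 34 and 12. VIM passed the count filter for testing through the HOTAIR-N group alone, and COL3A1 and CDH2 through the control group alone. A difference between the groups was thus part of their passing it. The part of these marker shifts in the results was not tested. In bulk RNA, fewer cells expressing a gene and less RNA per cell cannot be told apart.

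The HOTAIR-N group had more RNA for 4 ligands, the ligand carrier WLS, the receptor FZD4 and the inhibitors RNF43, AXIN2 and NKD1. It had less for most other Frizzled receptors, both LRP co-receptors, GSK3B, AXIN1, LEF1 and the inhibitor ZNRF3. The inhibitors DKK1 and NKD2 were not called. Of the 54 genes, 34 had enough counts to be tested and 25 of these were called at an adjusted p under 0.05 by edgeR's quasi-likelihood test (the source of each edgeR adjusted p given here), 10 higher and 15 lower. This share, 73.5%, lay near that of all 14919 genes tested, of which 71.1% were called, 36.2% higher and 34.8% lower. A call combined with a change of at least 1.5-fold was met by 17 of the 34 genes (9 higher and 8 lower), against 32.7% of all genes (17.5% higher and 15.1% lower). Of these 17, FZD8 passed the count filter through the control group alone and NKD1, WNT11 and WNT2B through the HOTAIR-N group alone, so a difference between the groups was part of their passing it. The groups did not overlap in CPM for 27 of the 34 genes and for 73.4% of all genes. The median log2 fold change, HOTAIR-N siRNA over control siRNA, was -0.10 over the 34 genes and 0.02 over all genes.

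**Figure D1:**
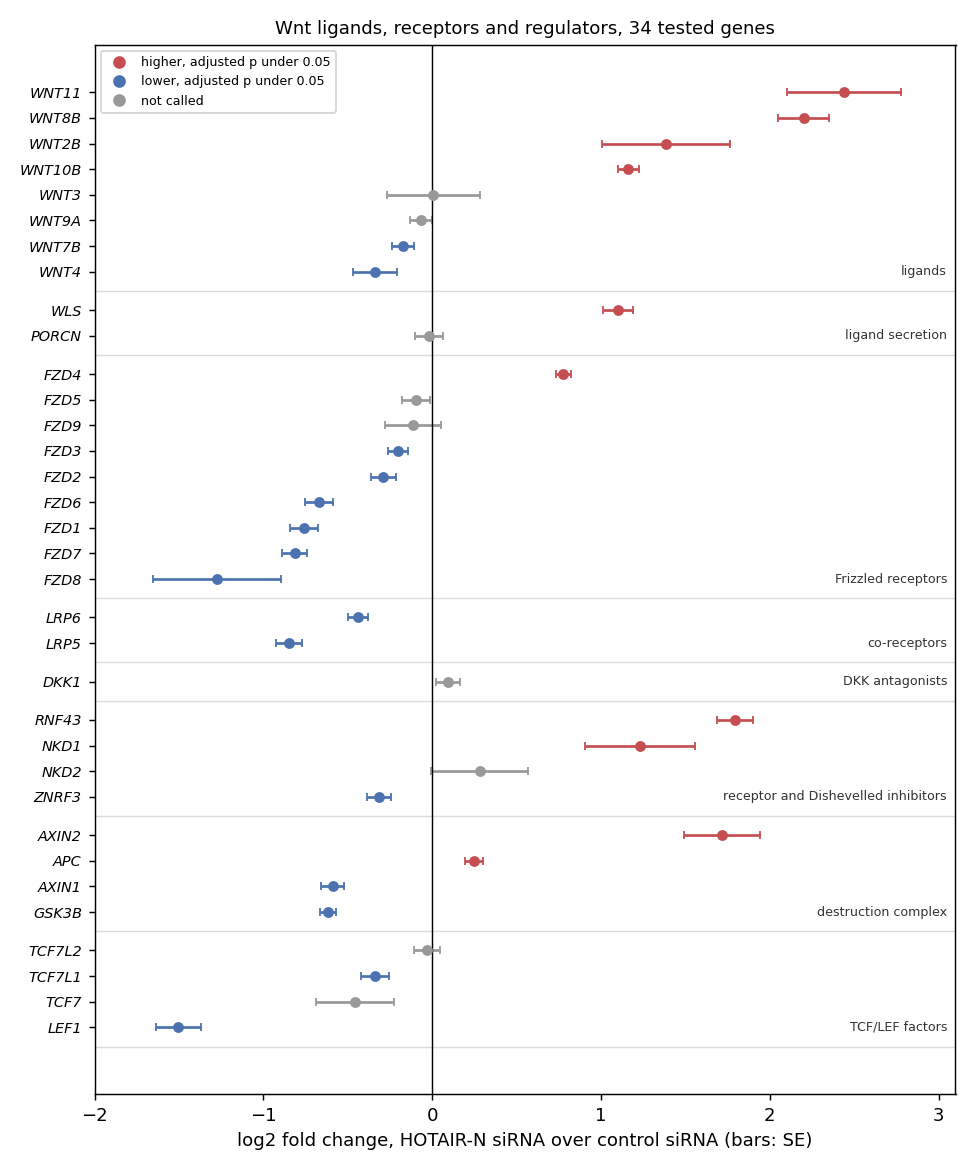
Log2 fold change (horizontal axis, HOTAIR-N siRNA over control siRNA, with bars of 1 SE from edgeR) of the 34 tested Wnt genes, ordered by role. Red and blue points mark the 10 genes called higher and the 15 called lower, and grey points the 9 without a call. WNT11, WNT8B, RNF43 and AXIN2 lie farthest to the right and LEF1 and FZD8 farthest to the left.

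Of 19 WNT ligand genes in the tables, 8 were tested, 4 rose, 2 fell and 2 were not called. Called ligands were 75% of those tested, close to the 71.1% of all genes tested. Per transcript length, WNT10B was the most abundant ligand in each library, followed by WNT7B and WNT9A. WNT10B, a ligand of the beta-catenin branch, was at 16.8, 15.4 and 17.1 CPM with the control siRNA and at 37.4, 37.8 and 35.1 CPM with the HOTAIR-N siRNA. All HOTAIR-N libraries lay above all controls, and WNT10B rose 2.24-fold (log2 fold change 1.16, SE 0.06, edgeR adjusted p = 8.7e-09). In TPM its level was 13.7 ± 0.750 in the control group and 31.3 ± 1.10 in the HOTAIR-N group (SD, n = 3). WNT8B, best known from the embryonic forebrain, was at 0.700, 0.923 and 0.773 CPM in the control libraries and at 3.81, 3.56 and 3.65 CPM in the HOTAIR-N libraries. It rose 4.60-fold (log2 fold change 2.20, SE 0.15, edgeR adjusted p = 7.1e-08), again without overlap.

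WNT11 and WNT2B rose from a few counts per library. WNT11, a ligand known mainly for signals that bypass beta-catenin, had 5, 5 and 6 counts with the control siRNA and 33, 35 and 20 with the HOTAIR-N siRNA. Its fitted change was 5.42-fold (log2 fold change 2.44, SE 0.34, edgeR adjusted p = 3.9e-05). The lowest HOTAIR-N library, replicate 3, still exceeded every control library. WNT2B, another ligand of the beta-catenin branch, had 4, 5 and 10 counts in the control libraries and 17, 20 and 13 in the HOTAIR-N libraries. The groups lay close but did not overlap, and WNT2B was called 2.61-fold higher (log2 fold change 1.38, SE 0.38, edgeR adjusted p = 0.0057). WNT2B overlaps ST7L on the opposite strand. ST7L had 266 to 275 counts in the control libraries and 388 to 426 in the HOTAIR-N libraries, and it rose by 0.60 on the log2 scale. The sources used here do not say whether reads were counted by strand, and if they were not, reads of the shared exons cannot be told apart.

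WNT4 and WNT7B fell by small amounts. WNT4 was at 4.40, 3.28 and 4.01 CPM in the control libraries and at 2.99, 3.26 and 3.01 CPM in the HOTAIR-N libraries. Control replicate 2 stood barely above HOTAIR-N replicate 2, and WNT4 fell by 0.34 on the log2 scale (SE 0.13, edgeR adjusted p = 0.034). WNT7B fell by 0.17 (SE 0.07, edgeR adjusted p = 0.035). In TPM the groups overlapped for both genes. WNT4 was at 1.61 TPM in control replicate 2 and 1.63 TPM in HOTAIR-N replicate 2, and WNT7B at 8.34 and 8.37 TPM. WNT4 and WNT7B were no longer called by DESeq2, after library-total or upper-quartile scaling, or when any single library other than control replicate 2 was left out. WNT9A was at 14.9, 14.7 and 15.6 CPM with the control siRNA and at 14.2, 15.001 and 14.0 CPM with the HOTAIR-N siRNA. These groups overlapped, and WNT9A was not called (log2 fold change -0.07, SE 0.07). WNT3, at 0.357 to 0.601 CPM, was not called either (log2 fold change 0.01, SE 0.28).

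The summed level of all WNT genes was 34.5, 31.6 and 34.7 TPM in the control libraries and 54.3, 55.7 and 52.1 TPM in the HOTAIR-N libraries. WNT10B made up 40.8%, 40.7% and 41.0% of that sum with the control siRNA and 58.4%, 57.9% and 57.7% with the HOTAIR-N siRNA. The share of WNT8B went from 2.41% ± 0.474 to 6.99% ± 0.363 (SD, n = 3), and its rank moved from the fifth to the fourth, past WNT4. WNT10B, WNT7B and WNT9A together held 88.9% of the ligand RNA in the control group and 86.1% in the HOTAIR-N group. These sums, and those given for receptors and other groups, were chosen after the values were seen and are descriptions without a test.

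**Figure D2:**
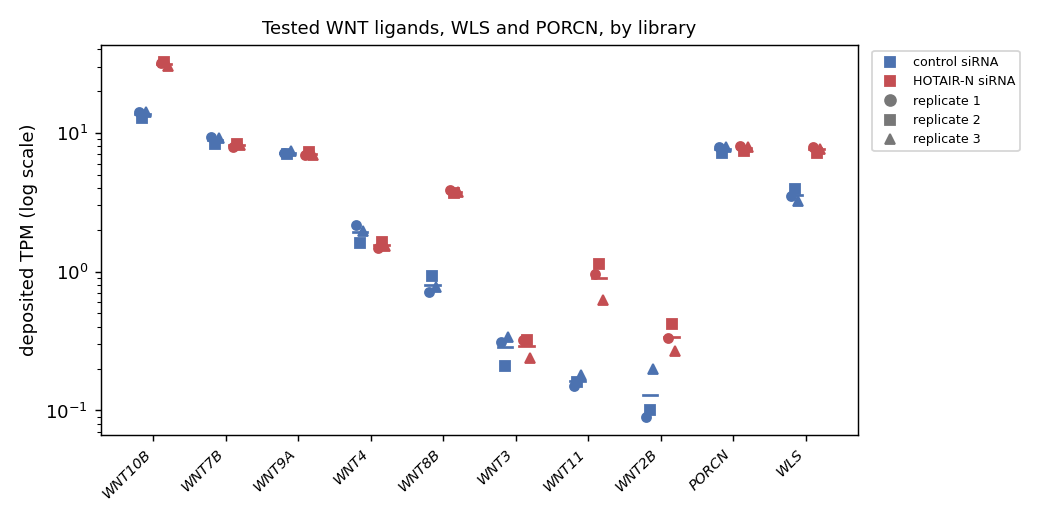
Deposited TPM (vertical axis, log scale) of the 8 tested WNT ligands and of PORCN and WLS in each library, blue for control siRNA and red for HOTAIR-N siRNA, with a bar at each group's mean and a symbol for each replicate. WNT10B, WNT8B, WNT11, WNT2B and WLS are higher in all 3 HOTAIR-N libraries, while WNT4, WNT7B, WNT9A, WNT3 and PORCN overlap between the groups.

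Of the genes of ligand export, WLS rose and PORCN was not called. WLS, the membrane protein that carries lipid-modified Wnt to the cell surface, was at 4.90, 5.39 and 4.61 CPM with the control siRNA and at 11.2, 10.0 and 10.7 CPM with the HOTAIR-N siRNA. The groups were well separated, and WLS rose 2.15-fold (log2 fold change 1.10, SE 0.09, edgeR adjusted p = 3.3e-07). PORCN, the enzyme that attaches the lipid, was at 7.51, 6.85 and 7.62 CPM in the control libraries and at 7.41, 7.03 and 7.27 CPM in the HOTAIR-N libraries. It was not called (log2 fold change -0.02, SE 0.08). The difference between the changes of WLS and PORCN was not itself tested.

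Of 10 Frizzled genes, 9 were tested, and FZD4 rose while FZD1, FZD2, FZD3, FZD6, FZD7 and FZD8 fell (FZD3 is not called after library-total scaling). Called Frizzled genes were 77.8% of those tested, beside 71.1% of all genes tested. FZD4, which also serves as the receptor of the non-Wnt ligand Norrin, was at 64.5, 67.7 and 63.3 CPM with the control siRNA. In the HOTAIR-N libraries it was at 113, 112 and 111 CPM, a narrow range far above the controls. FZD4 rose 1.71-fold (log2 fold change 0.78, SE 0.05, edgeR adjusted p = 2.2e-08), and no other Frizzled gene was called higher in the fit or under any alternative tried. FZD4 overlaps PRSS23 on the opposite strand, which had 431 to 511 counts in the control libraries and 307 to 350 in the HOTAIR-N libraries and fell by 0.49 on the log2 scale (SE 0.08).

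FZD7, known from stem-like epithelial cells, was at 12.8, 13.3 and 12.8 CPM in the control libraries and at 7.05, 7.24 and 7.79 CPM in the HOTAIR-N libraries. Its level with the HOTAIR-N siRNA was 56.8% of control (log2 fold change -0.81, SE 0.07, edgeR adjusted p = 8.3e-07). FZD1, a close relative of FZD7 in sequence, was at 17.2, 16.9 and 17.7 CPM and at 10.5, 11.3 and 8.89 CPM. HOTAIR-N replicate 3 was the lowest of its group, and FZD1 fell to 59.0% of control (log2 fold change -0.76, SE 0.08, edgeR adjusted p = 5.3e-06). FZD6, a receptor linked to planar cell polarity, was at 8.94, 10.2 and 9.25 CPM and at 5.79, 5.994 and 5.996 CPM. It fell to 62.8% of control (log2 fold change -0.67, SE 0.08, edgeR adjusted p = 1.5e-05), with no overlap between groups. FZD8 had 23, 13 and 18 counts in the control libraries and 6, 4 and 12 in the HOTAIR-N libraries. The highest HOTAIR-N library, replicate 3, was just below control replicate 2 in CPM. FZD8 was called at 41.3% of control (log2 fold change -1.28, SE 0.38, edgeR adjusted p = 0.0099), and with each library left out in turn its log2 fold change ran from -1.82 to -1.02.

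FZD2 and FZD3 fell less, by 0.29 (SE 0.08) and 0.20 (SE 0.06) on the log2 scale. FZD5 was at 8.46, 7.56 and 8.33 CPM with the control siRNA and at 7.82, 7.64 and 7.33 CPM with the HOTAIR-N siRNA. Its groups overlapped and it was not called (log2 fold change -0.10, SE 0.08). FZD9, at 1.97 to 3.00 CPM, was not called either (log2 fold change -0.11, SE 0.17). FZD10 had no counts in any library.

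**Figure D3:**
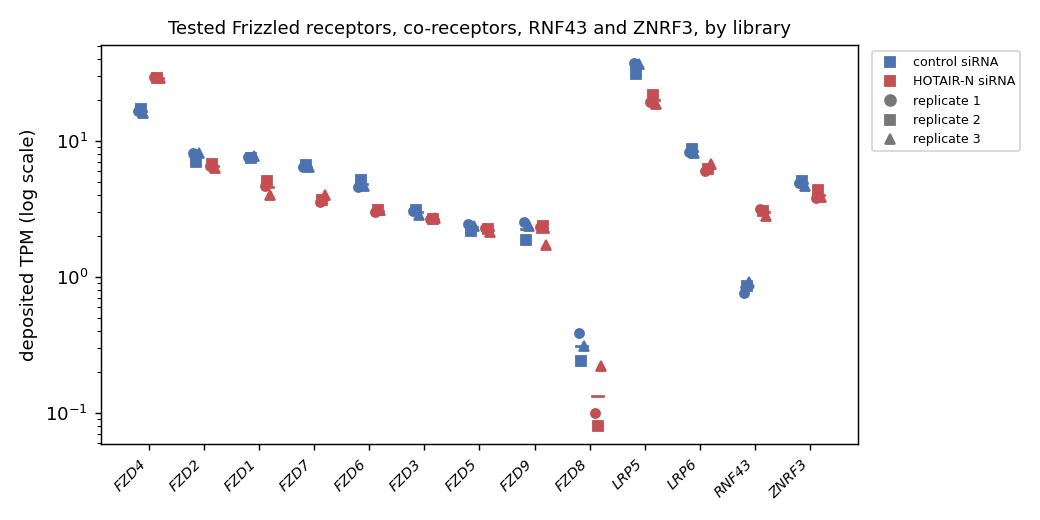
Deposited TPM (vertical axis, log scale) of the 9 tested Frizzled receptors, LRP5, LRP6, RNF43 and ZNRF3 in each library, blue for control siRNA and red for HOTAIR-N siRNA, with a bar at each group's mean. FZD4 and RNF43 lie higher in all 3 HOTAIR-N libraries, and FZD1, FZD7, FZD6, LRP5 and LRP6 lie lower.

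Levels of the receptors were compared per length, in TPM. FZD4 led the order in every library, at 16.5 ± 0.602 TPM in the control group and 28.96 ± 0.180 TPM in the HOTAIR-N group (SD, n = 3). In the control group FZD2 (7.76 TPM), FZD1 (7.59 TPM) and FZD7 (6.46 TPM) came next, and the values of FZD2 and FZD1 overlapped. The summed Frizzled level was 51.6, 50.7 and 50.8 TPM with the control siRNA and 54.2, 54.8 and 53.0 TPM with the HOTAIR-N siRNA, a small difference without overlap. The makeup of that sum differed more: FZD4 supplied 31.9%, 33.9% and 31.4% of Frizzled RNA in the control libraries and 53.8%, 52.8% and 54.4% in the HOTAIR-N libraries.

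**Figure D4:**
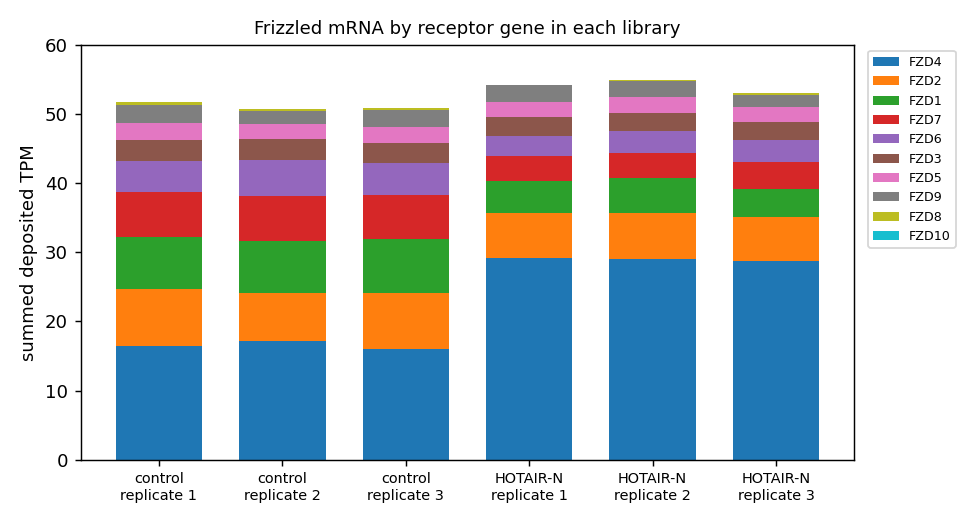
Summed deposited TPM of the Frizzled genes in each library (vertical axis), stacked by gene. The bars are of similar height, 50.7 to 51.6 TPM for control siRNA and 53.0 to 54.8 TPM for HOTAIR-N siRNA, while the lowest segment, FZD4, takes 31.4% to 33.9% of the control bars and 52.8% to 54.4% of the HOTAIR-N bars.

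Both tested co-receptors fell. LRP5 was at 100.9, 84.3 and 99.2 CPM in the control libraries and at 51.1, 57.5 and 49.3 CPM in the HOTAIR-N libraries. Replicate 2 was the lowest control and the highest HOTAIR-N library, yet the groups stayed apart. LRP5 fell to 55.5% of control (log2 fold change -0.85, SE 0.08, edgeR adjusted p = 8.7e-07). LRP6 was at 44.3, 47.2 and 44.3 CPM and at 31.9, 32.6 and 35.7 CPM, and it fell to 73.7% of control (log2 fold change -0.44, SE 0.06, edgeR adjusted p = 3.3e-05). LRP5 was the more abundant of them per length, with 80.5% of their summed TPM in the control group and 75.7% in the HOTAIR-N group. That sum was 43.2 ± 3.13 TPM with the control siRNA and 26.1 ± 1.49 TPM with the HOTAIR-N siRNA (SD, n = 3). LGR5, a receptor for R-spondins and a stem cell marker, had a sum of 1 count in the control libraries and 2 in the HOTAIR-N libraries.

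Among the DKK and SFRP antagonists DKK1 alone was expressed at a testable level. DKK1, which binds LRP5 and LRP6 and keeps them from forming a complex with Wnt and Frizzled, was at 10.6, 10.4 and 9.74 CPM with the control siRNA. With the HOTAIR-N siRNA it was at 10.7, 11.1 and 11.04 CPM, above every control library but by little. It was not called (log2 fold change 0.10, SE 0.07, edgeR adjusted p = 0.24), though it was after library-total scaling (log2 fold change 0.19, edgeR adjusted p = 0.025). DKK2 and SFRP2 had no counts. SFRP4 summed to 19 counts in the control group and 2 in the HOTAIR-N group, while SFRP1 and SFRP5 had 0 in the control group and 6 and 7 in the HOTAIR-N group. These were below the filter, and in a fit without it SFRP1, SFRP4 and SFRP5 were called.

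RNF43 and ZNRF3 are paralogous membrane ubiquitin ligases that remove Frizzled receptors from the cell surface, and they changed in opposite directions. RNF43 was at 2.30, 2.62 and 2.81 CPM in the control libraries and at 9.39, 9.10 and 8.28 CPM in the HOTAIR-N libraries, with a wide gap between the groups. It rose 3.47-fold (log2 fold change 1.79, SE 0.11, edgeR adjusted p = 2e-08). ZNRF3 was at 17.3, 18.0 and 16.5 CPM and at 13.2, 14.9 and 13.5 CPM, and it fell to 80.3% of control (log2 fold change -0.32, SE 0.07, edgeR adjusted p = 0.0016). Per length, RNF43 made up 14.8% ± 1.61 of the summed TPM of this pair in the control group and 43.0% ± 2.20 in the HOTAIR-N group (SD, n = 3). RNF43 shares exon positions with SUPT4H1 on the same strand, which had 3297 to 4043 counts and rose by 0.16 on the log2 scale (SE 0.05).

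NKD1 and NKD2 encode Naked cuticle proteins, which bind Dishevelled and dampen the signal. NKD1 had 9, 8 and 8 counts with the control siRNA and 18, 14 and 27 with the HOTAIR-N siRNA. All HOTAIR-N libraries were higher, with replicate 3 the highest, and NKD1 was called 2.35-fold higher (log2 fold change 1.23, SE 0.32, edgeR adjusted p = 0.0047). Without control replicate 2 and HOTAIR-N replicate 3, the libraries that stood apart, the call was lost (log2 fold change 0.91, edgeR adjusted p = 0.052). NKD2, at 0.377 to 0.659 CPM, was not called (log2 fold change 0.28, SE 0.29).

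RefSeq promoter windows (build GRCh38.p14, 250 bases before to 50 after a start) were at hand for 37 of the 54 genes, 47 windows in all. They were searched on both strands for CTTTGA, a form of the TCF core that reads TCAAAG on the other strand. Other forms of the core were not searched. DKK1 had 2 matches and PORCN had 1 in the second of its windows, so 2 of the 47 windows held CTTTGA, against 12.9% of all 35116 windows. The windows below are those of DKK1 (chr10:52314031-52314330, plus strand), which holds both matches, and of RNF43 (chr17:58417485-58417784, minus strand, 1 of 2 windows) and FZD4 (chr11:86955346-86955645, minus strand), the inhibitor and the receptor that rose. Capitals mark the searched form alone, and each window is written 5′ to 3′ on its gene's strand.
DKK1: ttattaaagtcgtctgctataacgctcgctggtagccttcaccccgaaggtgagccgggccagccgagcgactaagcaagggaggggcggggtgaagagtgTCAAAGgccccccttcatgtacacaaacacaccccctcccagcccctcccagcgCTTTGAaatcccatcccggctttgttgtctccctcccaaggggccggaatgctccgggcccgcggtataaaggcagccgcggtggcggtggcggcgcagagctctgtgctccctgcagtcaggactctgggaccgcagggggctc
RNF43: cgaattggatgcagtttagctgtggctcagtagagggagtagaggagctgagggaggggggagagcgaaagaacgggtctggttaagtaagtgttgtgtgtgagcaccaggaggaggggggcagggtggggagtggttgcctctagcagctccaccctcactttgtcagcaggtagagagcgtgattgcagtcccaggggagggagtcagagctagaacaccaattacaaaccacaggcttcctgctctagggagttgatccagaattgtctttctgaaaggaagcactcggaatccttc
FZD4: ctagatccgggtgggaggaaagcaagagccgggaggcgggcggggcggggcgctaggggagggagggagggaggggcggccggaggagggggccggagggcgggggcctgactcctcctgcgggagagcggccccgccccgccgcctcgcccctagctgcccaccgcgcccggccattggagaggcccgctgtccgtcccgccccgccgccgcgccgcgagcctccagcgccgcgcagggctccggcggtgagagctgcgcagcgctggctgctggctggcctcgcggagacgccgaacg
The last pair of windows has no match, which says only that these letters are not in them. AXIN2, NKD1, WNT10B and WNT11, which rose, were not searched.

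The destruction complex genes moved in both directions. GSK3B, the kinase that phosphorylates beta-catenin, was at 126, 135 and 125 CPM in the control libraries and at 82.7, 82.7 and 86.7 CPM in the HOTAIR-N libraries. It fell to 65.3% of control (log2 fold change -0.62, SE 0.05, edgeR adjusted p = 2.2e-07), and the groups were far apart. AXIN1, the constitutive scaffold of the complex, was at 46.98, 41.3 and 48.9 CPM and at 30.2, 31.6 and 29.5 CPM, and it fell to 66.5% of control (log2 fold change -0.59, SE 0.07, edgeR adjusted p = 7.9e-06). AXIN2, its paralog and a widely used target gene of beta-catenin, had 15, 10 and 12 counts with the control siRNA and 39, 42 and 41 with the HOTAIR-N siRNA. All HOTAIR-N libraries exceeded all controls, and AXIN2 rose 3.29-fold (log2 fold change 1.72, SE 0.23, edgeR adjusted p = 2.4e-05). AXIN2 was the less abundant paralog in both groups: it supplied 0.633% of the summed AXIN TPM in the control group and 3.15% in the HOTAIR-N group, and the sum was 24.7 ± 2.14 and 17.2 ± 0.659 TPM (SD, n = 3). APC, the large scaffold mutated in colorectal cancer, was at 87.9, 95.6 and 89.7 CPM and at 104, 106 and 114 CPM. It rose by 0.25 on the log2 scale (SE 0.05, edgeR adjusted p = 0.0011).

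Among the TCF/LEF factors, the DNA-binding partners of beta-catenin, LEF1 fell most. LEF1 was at 5.02, 4.94 and 4.32 CPM in the control libraries and at 1.48, 1.73 and 1.82 CPM in the HOTAIR-N libraries. The groups were well apart, and LEF1 fell to 35.3% of control (log2 fold change -1.50, SE 0.13, edgeR adjusted p = 6.4e-07). TCF7L1, which acts mainly as a repressor, fell by 0.34 (SE 0.08, edgeR adjusted p = 0.0031). TCF7L2 was at 12.5, 11.3 and 12.6 CPM and at 11.6, 12.8 and 11.3 CPM, in overlapping ranges, and was not called (log2 fold change -0.03, SE 0.08). TCF7 was at 1.62, 1.28 and 1.37 CPM and at 1.21, 1.25 and 0.666 CPM and was not called (log2 fold change -0.46, SE 0.23, edgeR adjusted p = 0.092), although its groups did not overlap. TCF7 overlaps SKP1, a far more abundant gene on the opposite strand (8198 to 12583 counts), which fell by 0.43 on the log2 scale. In TPM, TCF7L1 supplied 50.5% of the TCF/LEF sum in the control group and 51.01% in the HOTAIR-N group, and LEF1 13.9% and 6.21%.

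The transcript tables list 128 transcripts of the Wnt genes, of which 56 were tested, 8 rose, 10 fell and 38 were not called. Of all 32285 transcripts tested, 32% were called, 15.4% higher and 16.6% lower. The called transcripts belonged to 16 genes, each in the direction of its gene. Among the called genes without a called transcript were FZD2, FZD8, NKD1, TCF7L1, WNT4 and WNT7B. Each of these has a single listed transcript with the same counts as the gene. In the transcript fit, FZD8 had an edgeR adjusted p of 0.19 and NKD1 of 0.11. GSK3B was the gene with the most called transcripts: NM_001146156, NM_002093 and NM_001354596 fell by 0.51, 1.09 and 1.35 on the log2 scale. The percent of GSK3B assigned to NM_001146156 was 80.6, 82.5 and 83.9 in the control libraries and 87.8, 85.8 and 90.3 in the HOTAIR-N libraries, so the major form took a somewhat larger share at a lower total. For AXIN1, NM_003502 fell by 0.90 (SE 0.20, edgeR adjusted p = 0.019), and NM_181050, the more abundant form, was at -0.41 (SE 0.14, edgeR adjusted p = 0.07). The rise of APC was called for NM_001354896 (log2 fold change 0.89, SE 0.22, edgeR adjusted p = 0.028). Its percent of APC was 15.3, 23.9 and 26.9 with the control siRNA and 34.3, 34.4 and 34.4 with the HOTAIR-N siRNA. The mean percent of NM_000038 went the other way, from 22.7 to 12.8, without a call (log2 fold change -0.57, SE 0.26, edgeR adjusted p = 0.17). The estimated division of reads among APC forms varied within groups: NM_001127510 had 0 counts in control replicate 2 and HOTAIR-N replicate 1, and 140 to 265 elsewhere. LEF1 was called for NM_016269 (log2 fold change -1.60, SE 0.30, edgeR adjusted p = 0.01). For PORCN, whose total was not called, the percent of NM_022825 was 55.4, 50.02 and 45.8 in the control libraries and 0, 13.0 and 32.3 in the HOTAIR-N libraries, and that of NM_203473 was 9.76, 0 and 8.60 and then 27.6, 37.9 and 33.3. These ranges do not overlap, but neither PORCN transcript was called, and the estimated division of reads among near-identical forms varied between libraries of a group.

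Other genes of the pathway were counted over 7 lists with overlapping members. Without the 54 genes they hold 122 genes in the tables, of which 92 were tested, 28 rose, 47 fell and 17 were not called, with a median log2 fold change of -0.17. Called genes were 81.5% of the 92, 30.4% higher and 51.1% lower, beside 71.1%, 36.2% and 34.8% of all genes tested. Of 8 tested receptor partners, 2 rose and 4 fell. ROR2, a receptor tyrosine kinase for WNT5A, fell to 43.5% of control, RYK, another Wnt-binding receptor, to 63.9%, and KREMEN1, a DKK receptor, to 59.9%. LGR4, an R-spondin receptor, rose 1.45-fold, and KREMEN2, named after its value was seen, rose 1.35-fold. Of 18 secreted modulators 4 were tested: GPC4 and GPC3, cell surface glypicans, fell to 48.5% and 61.1%, and the antagonist SOSTDC1 and the FZD4 ligand gene NDP rose 2.68-fold and 2.41-fold. GPC3 passed the count filter through the control group alone and NDP through the HOTAIR-N group alone, so a difference was part of their passing it. NDP was at 0.224, 0.328 and 0.258 CPM in the control libraries and 0.714, 0.426 and 0.811 CPM in the HOTAIR-N libraries, or 8 to 28 counts each. Of 9 genes of Wnt sorting and retromer, all tested, 2 rose and 5 fell. TMED10, a cargo receptor of the early secretory pathway, fell to 58.6% of control, VPS26A to 79.0% and AP2M1 to 87.8%, and VPS35, a retromer subunit like VPS26A, rose 1.18-fold.

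Of 26 tested cytoplasmic components, 9 rose and 13 fell, beside 36.2% higher and 34.8% lower among all genes tested. FBXW11 and BTRC, the paralogous F-box proteins that recognise phosphorylated beta-catenin, fell to 56.1% and 53.5% of control. TNKS2, a tankyrase that marks AXIN for degradation, rose 1.64-fold, and MCC rose 2.09-fold. CTNNB1, which encodes beta-catenin and is named for its role outside the naming rule, was at 404, 420 and 393 CPM in the control libraries and at 355, 359 and 366 CPM in the HOTAIR-N libraries. It fell by 0.17 on the log2 scale (SE 0.04, edgeR adjusted p = 0.0016). Of 16 nuclear cofactors, 5 rose and 9 fell, among them the corepressor CTBP2 (49.4% of control), TBL1X (47.1%), the kinase HIPK2 (49.5%) and CTNNBIP1, an inhibitor of the binding between beta-catenin and TCF (62.7%).

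The list of beta-catenin/TCF target genes, which includes Wnt genes already described, had 21 tested members. Of all genes tested, 71.1% were called, 36.2% higher and 34.8% lower. In this list 6 rose and 9 fell, and the median log2 fold change was -0.11. Its members with the smallest p moved both ways: ENC1 rose 2.43-fold and RNF43 3.47-fold, while SOX9, a transcription factor of progenitor cells, fell to 32.8% of control and LEF1 to 35.3%. AXIN2, RNF43 and NKD1 rose, and ZNRF3 and LEF1, which are feedback targets too, fell. MYC and CCND1, named after their values were seen, had log2 fold changes of 0.21 and -0.38. Of 15 tested planar cell polarity genes, 5 rose and 7 fell. CELSR1, a seven-pass cadherin of the polarity core, was at 358, 314 and 347 CPM in the control libraries and at 103, 101 and 94.9 CPM in the HOTAIR-N libraries, 29.3% of control. Its relatives CELSR2 and CELSR3 moved apart, to 54.0% of control and 2.18-fold higher, and PRICKLE2, a cytoplasmic polarity protein, rose 2.58-fold.

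**Figure D5:**
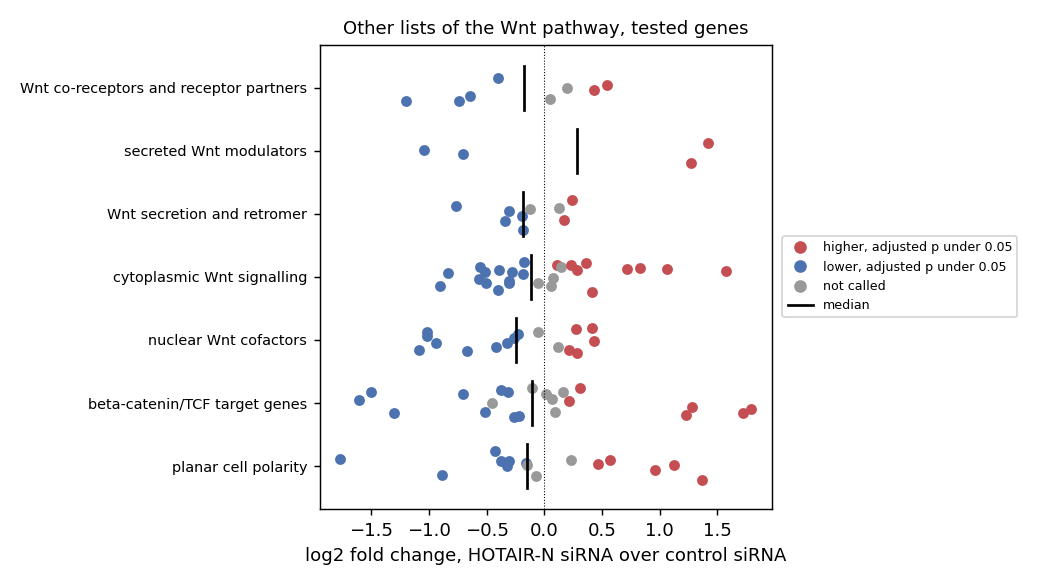
Log2 fold change (horizontal axis, HOTAIR-N siRNA over control siRNA) of the tested genes of 7 further Wnt pathway lists, 1 point per gene (red called higher, blue called lower, grey not called), with a black bar at each list's median. Each list holds genes on both sides of 0, and the medians lie between -0.25 and 0.28.

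The 20 Wnt genes that were not tested had few reads. DKK2, FZD10, SFRP2 and WNT8A had no counts in any library. WNT5A, a ligand of the branch that bypasses beta-catenin, summed to 14 counts in the control group and 24 in the HOTAIR-N group, WNT6 had 9 and 20, WNT3A 4 and 15, and WNT10A 6 and 15. WNT1, WNT2, WNT5B, WNT7A, WNT9B, WNT16, DKK3 and DKK4 had 0 to 9 counts per group. In a fit without the count filter none of these WNT and DKK genes was called, and a gene without counts is only known to be below the reach of this depth.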

How the data were processed

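RNA was sequenced from 3 control siRNA and 3 HOTAIR-N siRNA libraries of T47D cells. The submitters' processing notes name STAR 2.6.0c, RSEM 1.3.0 and hg19; the sources used here do not give the strand setting. Per the file headers, the deposited gene and transcript tables hold RSEM expected counts, TPM, FPKM and, for transcripts, the percent of the gene. FPKM was not used. The expected counts were rounded to integers, filtered with filterByExpr (minimum count 10, minimum total 15), TMM-scaled and tested across all genes or transcripts with edgeR 4.0.16 (R 4.3.3), with Benjamini-Hochberg adjustment and calls at an adjusted p under 0.05. SE is the size of the log2 fold change divided by the square root of F. CPM are TMM-scaled. Deposited TPM were used to compare levels between genes. The steps were tested on simulated data.

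Values in every library are given for genes called with at least 1.5-fold change and for the 5 most abundant genes without a call, chosen by TPM with the control siRNA, and in each further list up to 4 genes with the smallest p are named. WNT4, LRP6, ZNRF3, APC, TCF7, NDP and CTNNB1 are shown in addition, chosen after their values were seen. The genes, lists and rules were chosen with earlier results of these data known. Same-numbered replicates are not described as paired and did not deviate together, so no block was used. Alternatives were DESeq2 1.42.0, limma-voom (limma 3.58.1), other scalings and filters, a replicate block, omitted libraries and stricter thresholds. Promoter windows are from RefSeq (GRCh38.p14); exon overlaps from GENCODE v29. SE, p and SD measure the spread between transfections of 1 cell line.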

Additional observations from a re-analysis of the deposited data

How the results depend on the processing

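Of the 25 Wnt genes called, 18 to 25 were still called under each alternative. DESeq2 size factors, limma-voom and the fit without a filter lost none. In the transcript fit, limma-voom left the WNT11 transcript without a call (limma-voom adjusted p = 0.086). Library totals, which moved the median of all genes to 0.12 on the log2 scale, lost FZD3, WNT4 and WNT7B and added DKK1, and a filter of 1 CPM in 3 libraries left FZD8, NKD1, WNT11 and WNT2B untested. The test against a 1.2-fold change lost APC, FZD2, FZD3, TCF7L1, WNT4, WNT7B and ZNRF3. It left 18 Wnt genes called, 9 of them lower. In that test 17 and 29 of the other pathway genes were higher and lower, and 6876 of all genes were called. At an adjusted p under 0.01, WNT4 and WNT7B lost their gene calls, and 5 transcripts of Wnt genes were higher and 6 lower. Shares over all transcripts under this and the following settings are not given here.

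Same-numbered libraries did not deviate together (r = -0.04, -0.21 and -0.12), and no library correlated best with its own number. With the replicate number as a block, WNT7B was lost (edgeR adjusted p = 0.082), 24 of the 25 genes were still called, and 5 transcripts were called higher in place of 8 and 7 lower in place of 10. Among transcripts named above, APC NM_001354896 (edgeR adjusted p = 0.051), LEF1 NM_016269 (0.065) and GSK3B NM_001354596 (0.086) then had no call. Leaving out each library in turn gave 5 to 8 transcripts called higher.

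Genes without a call changed sign. WNT3 was at -0.0056 with DESeq2 size factors, -0.0037 with DESeq2, -0.013 without a filter and -0.064 without both libraries that stood apart, and from -0.18 to 0.16 with single libraries left out. PORCN was at 0.080 by library totals, 0.039 by upper-quartile scaling, -0.069 to 0.0050 with 1 library left out and -0.083 without both. TCF7L2 was at 0.065 and 0.024 under those scalings, FZD5 at 0.00097 and WNT9A at 0.031 by library totals, and FZD9 ran from -0.24 to 0.021 with a library left out.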
